A study of Mus musculus with 11 samples.

Results

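The sites described here are 483 places in the mouse genome where an HA-tagged fusion protein was found in both of a pair of tumour-derived cell lines, away from gene ends and outside any peak of H3K27ac, the acetylation of histone H3 that marks active promoters and enhancers. They were chosen in steps from the HA peaks of line M00002. That list held 29937 peaks on chromosomes 1 to 19 and X. Of these, 5074 overlapped an HA peak of line M00001, and 4514 of the 5074 overlapped no peak of the IgG control of either line. Among them, 2823 lay more than 1 kb from every end of a protein-coding gene, and 483 of the 2823 (17.1%, exact 95% interval 15.7 to 18.6%) overlapped no peak of either H3K27ac antibody of M00002. They are called bare sites below, for want of H3K27ac in M00002 only, since H3K27ac of M00001 is not analysed here. Over all 29147 HA peaks of M00002 free of IgG, 61.1% lacked H3K27ac, and over the 4514 shared ones 19.8% did. HA, IgG, H3K27ac and gene distance chose the sites, so their values are given as description, without a test.

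CUT&RUN releases DNA around an antibody's target with a tethered nuclease, and 11 libraries of this kind were made from untreated, cultured cells. Line M00002 gave HA, IgG, p65 and H3K27ac with antibodies ac4729 and ac647. Line M00001 gave HA, IgG, Cbp, p300 and Rpb1 with antibodies S2 and S5. Both lines carry the HA-tagged fusion, written CRfus1 in the labels and taken here as the ZFTA-RELA fusion of the series title, and each is a tumour-derived line, with its own animal label, grown on Matrigel in neural basal medium with bFGF and EGF. No line without the fusion was used here, and the labels do not say how the tumours arose. Each target had 1 library per line, so every p-value below compares peaks of these libraries and not conditions.

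ZFTA-RELA joins ZFTA, a zinc-finger protein, to nearly all of RELA (p65), the activating subunit of NF-kappaB, and is the main driver of supratentorial ependymoma. The RELA part binds kappaB motifs and carries a transactivation domain that recruits the acetyltransferases Cbp and p300, which place H3K27ac. The p65 antibody can also see the RELA part of the fusion, so a p65 peak is no separate evidence of endogenous p65. Rpb1 is the largest subunit of RNA polymerase II. Phosphorylation of its tail at serine 5 is known from initiating polymerase and at serine 2 from elongating polymerase.

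The sequences that could be read are those of promoter windows, 300 bases from 250 before to 50 after a transcript start, from RefSeq (GRCm38.p6, the assembly behind mm10). Although all bare sites lie more than 1 kb from the outer ends of protein-coding genes, 42 of the 483 (8.70%) overlapped such a window, 36 of them at a start inside or beside the span of a protein-coding gene and 6 at a lncRNA start. The first 4 windows below, of 8 of this kind, are shown because they hold a match to the 10-base kappaB consensus, set in capitals, beneath the HA peak. They belong to Ptpn3, a protein tyrosine phosphatase, Rap1gap, which switches off the small GTPase Rap1, Myadm, a membrane protein, and Bbc3, which encodes the pro-apoptotic protein PUMA and holds 2 overlapping matches. All are written 5′ to 3′ on the strand of the gene, so a match may read as its reverse complement.
Ptpn3, chr4:57301788-57302087, minus strand: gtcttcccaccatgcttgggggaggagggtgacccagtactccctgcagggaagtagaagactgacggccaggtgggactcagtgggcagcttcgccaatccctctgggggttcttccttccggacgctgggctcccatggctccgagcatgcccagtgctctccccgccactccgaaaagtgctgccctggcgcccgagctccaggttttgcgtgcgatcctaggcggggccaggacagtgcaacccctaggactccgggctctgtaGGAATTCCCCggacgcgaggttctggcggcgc
Rap1gap, chr4:137681353-137681652, plus strand: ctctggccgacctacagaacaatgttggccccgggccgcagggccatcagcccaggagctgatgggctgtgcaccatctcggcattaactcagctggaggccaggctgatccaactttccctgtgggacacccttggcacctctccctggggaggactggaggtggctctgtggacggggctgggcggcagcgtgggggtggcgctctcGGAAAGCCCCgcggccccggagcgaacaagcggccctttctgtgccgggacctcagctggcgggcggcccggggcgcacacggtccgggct
Myadm, chr7:3290305-3290604, plus strand: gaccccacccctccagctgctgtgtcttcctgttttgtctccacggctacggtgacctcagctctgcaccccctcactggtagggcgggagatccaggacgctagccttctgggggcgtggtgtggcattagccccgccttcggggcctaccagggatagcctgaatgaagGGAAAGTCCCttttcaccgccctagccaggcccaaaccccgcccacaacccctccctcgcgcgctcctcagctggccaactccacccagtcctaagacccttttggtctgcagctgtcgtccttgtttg
Bbc3, chr7:16309333-16309632, plus strand: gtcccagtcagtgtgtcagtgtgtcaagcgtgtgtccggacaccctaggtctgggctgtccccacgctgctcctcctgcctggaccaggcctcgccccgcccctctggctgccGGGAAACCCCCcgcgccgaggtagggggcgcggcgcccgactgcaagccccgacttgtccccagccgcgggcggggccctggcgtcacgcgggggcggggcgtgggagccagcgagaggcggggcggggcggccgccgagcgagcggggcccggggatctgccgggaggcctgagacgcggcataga

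The next 2 windows are shown for their repeated GC boxes at 2 of the strongest bare sites, with each of the 5 matches to GGGCGG on either strand in capitals. Beneath the HA peak of M00002 lie 1 of the 5 at Pdpk1 and 4 of the 5 at Add3. Pdpk1 encodes the kinase that phosphorylates AKT, and Add3 a subunit of the membrane skeleton protein adducin. The last window is that of an internal start of Rbpj, the DNA-binding protein through which Notch acts, with the letters beneath the HA peak of M00002 in capitals.
Pdpk1, chr17:24141545-24141844, minus strand: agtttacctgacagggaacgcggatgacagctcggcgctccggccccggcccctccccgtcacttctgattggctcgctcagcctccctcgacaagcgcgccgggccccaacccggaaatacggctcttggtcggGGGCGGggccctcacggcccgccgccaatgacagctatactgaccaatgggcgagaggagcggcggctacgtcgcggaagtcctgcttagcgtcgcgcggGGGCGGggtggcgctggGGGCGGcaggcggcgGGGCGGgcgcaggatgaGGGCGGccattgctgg
Add3, chr19:53142506-53142805, plus strand: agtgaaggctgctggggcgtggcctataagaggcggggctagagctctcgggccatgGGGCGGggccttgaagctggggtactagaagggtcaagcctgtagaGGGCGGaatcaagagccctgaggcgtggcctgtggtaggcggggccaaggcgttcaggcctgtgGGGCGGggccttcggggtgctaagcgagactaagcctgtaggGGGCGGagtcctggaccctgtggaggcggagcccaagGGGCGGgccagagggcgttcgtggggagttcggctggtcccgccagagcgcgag
Rbpj, chr5:53590096-53590395, plus strand: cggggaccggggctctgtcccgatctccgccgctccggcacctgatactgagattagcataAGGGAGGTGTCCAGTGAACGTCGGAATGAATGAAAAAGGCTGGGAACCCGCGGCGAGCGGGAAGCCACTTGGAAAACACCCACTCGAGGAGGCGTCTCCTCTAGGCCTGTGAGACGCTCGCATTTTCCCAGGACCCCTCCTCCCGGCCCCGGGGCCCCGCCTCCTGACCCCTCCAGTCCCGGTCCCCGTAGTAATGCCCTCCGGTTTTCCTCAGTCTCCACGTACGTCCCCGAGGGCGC

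Across the 42 windows, 9 (21.4%, exact 95% interval 10.3 to 36.8%) held the kappaB consensus. The share was 10.6% of the windows at shared distal peaks with H3K27ac and 16.5% at M00002-only peaks. At shared HA peaks within 1 kb of a gene end it was 14.8%, and over all 32585 windows 8.51%. The interval covers the shares of these 3 classes. GGGCGG was in 83.3% of the 42, against 56.7%, 55.3% and 84.1% in the same 3 classes and 35.9% of all windows, so the gene-end class held it about as often. TGANTCA, the AP-1 motif, was in none of the 42, which allows a share of up to 8.41% (exact 95% interval). It was in 17.0%, 10.1% and 4.00% in the same 3 classes and in 7.85% of all windows. GGAATG, the TEAD motif, was in 16.7% of the 42, in 15.6%, 16.0% and 11.4% in those classes and in 14.6% of all windows. Both strands were searched, and matches to different motifs may share letters. The GC content of the 42 windows had a median of 68.3%, against 53.0% over all windows, and its part in the motif shares was not tested. Motifs at the other 441 sites were not analysed here.

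The fusion itself was moderately enriched at the bare sites. HA fold enrichment, the authors' ratio over the peak caller's background at the summit, had a median of 6.74 in M00002 (2.74 to 23.2) and 4.96 in M00001 (2.07 to 19.9). Shared distal HA peaks with H3K27ac, 2340 in number, had medians of 11.4 and 5.97, and the 14832 distal HA peaks found in M00002 only and without H3K27ac had a median of 3.74. The peaks of M00002 were 159 bp wide in the median at bare sites, 235 bp where H3K27ac was present and 97 bp in the M00002-only class. The q-value was below 0.01 at 87.6% of bare sites in M00002 and at 69.8% in M00001. The summits of both lines lay a median of 37 bp apart, and within 50 bp at 294 of the 483 sites (60.9%). An IgG peak of either line lay within 1 kb of 16 bare sites (3.31%), of 1.71% of the class with H3K27ac and of 0.883% of the M00002-only class.

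The ranges of HA fold on either side of the thresholds overlapped. The 5 sites just past 1 kb, at 1023 to 1044 bp from a gene end, had HA folds of 3.85 to 9.15 in M00002, and the 5 peaks just short of it, at 889 to 938 bp, had 4.24 to 26.7. Of the sites 1 bp from an H3K27ac peak, 5 had folds of 3.63 to 18.8, and the 5 peaks left out for an H3K27ac overlap of 1 to 4 bp had 3.74 to 17.5. Some bare sites thus bordered directly on an H3K27ac peak.

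The first comparison asked which factors lay at bare sites, against shared distal HA peaks with H3K27ac. p65 overlapped 280 of 483 bare sites (57.97%, interval 53.4 to 62.4%) and 87.3% of the sites with H3K27ac, an odds ratio of 0.201 (0.162 to 0.250). p300 overlapped 55 bare sites (11.4%) and 23.1% of those with H3K27ac, an odds ratio of 0.428 (0.318 to 0.576). p65 and p300 peaks were thus less frequent where H3K27ac was missing, with adjusted p = 1.97e-44 for p65 and 3.62e-09 for p300 (Fisher's exact test, two-sided, Benjamini-Hochberg over 12 tests). The p65 antibody can see the fusion, and HA of the same line chose both classes. HA fold also differed between them, with medians of 6.74 and 11.4 in M00002. The p65 test is therefore not separate from HA and cannot speak for endogenous p65. As background, over all HA peaks of M00002 free of IgG the shares were 32.9% for p65, 6.55% for p300, 2.81% for Cbp, 12.2% for S5 and 21.9% for S2. Over the shared ones they were 81.2%, 23.6%, 10.7%, 35.4% and 55.8%, many of these at gene ends.

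Polymerase was also less frequent at bare sites. S5 overlapped 81 of them (16.8%) and 23.3% of sites with H3K27ac, an odds ratio of 0.662 (0.512 to 0.856, adjusted p = 0.00170, Fisher's exact test). S2 overlapped 150 (31.1%) and 42.4%, an odds ratio of 0.611 (0.496 to 0.753, adjusted p = 5.11e-06, Fisher's exact test). Cbp overlapped 37 (7.66%) and 11.2%, an odds ratio of 0.655 (0.458 to 0.938, adjusted p = 0.0204, Fisher's exact test). The Cbp call was lost within classes of HA fold (0.736), within classes of HA peak width, with a q limit on the marks and with summit windows. The S5 call was lost within classes of HA peak width and, like that of S2, with a stricter q for HA.

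**Figure D1:**
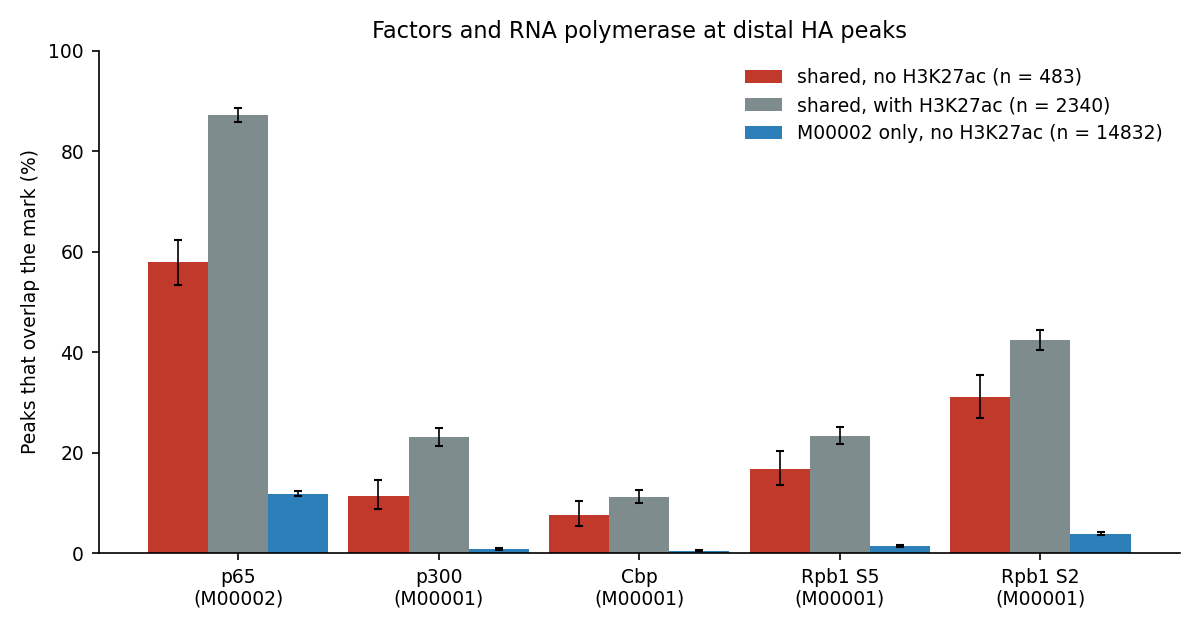
Share of distal HA peaks that overlap p65, p300, Cbp, Rpb1 S5 and Rpb1 S2 (percent, vertical axis) for shared peaks without H3K27ac, shared peaks with H3K27ac and peaks of M00002 only without H3K27ac; bars start at 0 and error bars are exact 95% intervals over peaks. For each of the 5 marks the shared peaks without H3K27ac lie between the other classes, for p65 at 57.97% against 87.3% and 11.9%.

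HA enrichment differed between the classes, so the shares were compared within 5 classes of HA fold as well. In the lowest class, folds of 2.74 to 6.25, p65 was at 31.8% of bare sites and 45.7% of sites with H3K27ac, and p300 at 10.9% and 19.8%. In the class from 8.96 to 12.1, p65 was at 82.1% and 94.4% and p300 at 8.97% and 20.6%. In the highest class all 21 bare sites had p65, as did 99.8% of sites with H3K27ac, and p300 was at 28.6% and 30.1%. Cbp in that class was at 28.6% of bare sites (6 of 21, exact 95% interval 11.3 to 52.2%) and 15.6% of sites with H3K27ac. In the lower 4 classes p300 was at 8.97% to 11.3% of bare sites and Cbp at 0% to 10.9%. Over the 5 classes the odds ratio of p65 was 0.426 (0.329 to 0.550), closer to 1 than without classes, and that of p300 was 0.502 (0.369 to 0.684). The p65 difference thus moved by more than 1.5 times with HA fold, while both calls held.

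**Figure D2:**
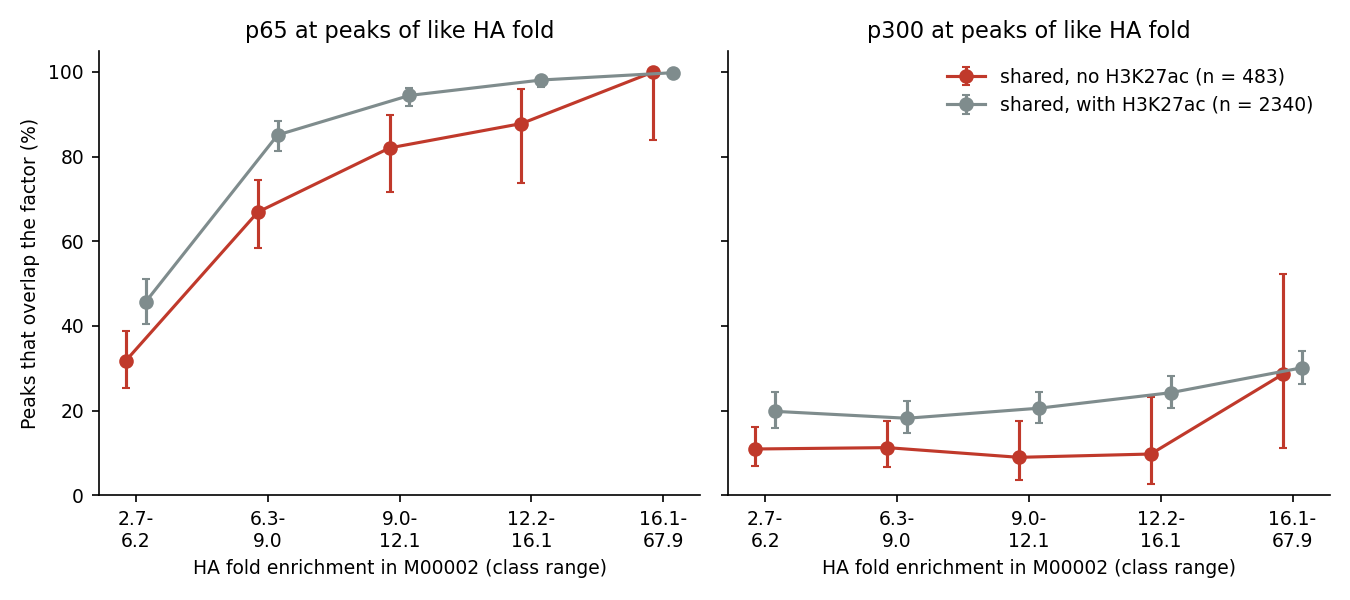
Share of peaks that overlap p65 (left) and p300 (right) in 5 classes of HA fold enrichment in M00002 (horizontal axis, class range), for shared distal peaks without and with H3K27ac; bars are exact 95% intervals. p65 climbs with HA fold in both classes of peaks, to 100% of the 21 strongest bare sites, whereas p300 at bare sites stays between 8.97% and 11.3% in the lower 4 classes.

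Against the HA peaks of M00002 alone that also lack H3K27ac, each of the 5 marks was more frequent at bare sites. p65 was at 57.97% of bare sites and 11.9% of the M00002-only peaks, an odds ratio of 10.2 (8.49 to 12.4, adjusted p = 4.06e-122, Fisher's exact test). p300 was at 11.4% and 0.775% (odds ratio 16.4, 11.8 to 23.0) and Cbp at 7.66% and 0.506% (16.3, 10.9 to 24.5). S5 was at 16.8% and 1.35% (14.7, 11.2 to 19.4) and S2 at 31.1% and 3.87% (11.2, 9.07 to 13.8), and the largest adjusted p of the 5 marks was 9.63e-28 (Fisher's exact test). Within classes of HA fold the odds ratios were 3.11 for p65, 11.6 for p300, 12.5 for Cbp, 9.01 for S5 and 6.30 for S2. The M00002-only peaks were the weaker and narrower class, as given above, and 34.5% of them had q below 0.01. The rule set these classes apart by an HA peak in M00001, the line that also gave p300, Cbp, S5 and S2. Binding of the fusion and a general ease of peak calling in M00001 at these sites cannot be told apart here. The p65 antibody can see the fusion, so its share is no separate measure.

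The marks did not fall on the same bare sites. p65 alone, with none of the 4 marks of M00001, was at 161 sites (33.3%), and 138 (28.6%) had none of the 5 marks. In the class with H3K27ac 6.58% had none, and in the M00002-only class 84.3%. p65 with S2 and no other mark was at 48 bare sites, p65 with both forms of Rpb1 and neither acetyltransferase at 26, and all 5 marks at 9. p300 and S5, which come from the same line, overlapped each other's sites: S5 was at 67.3% of the 55 bare sites with p300 and at 10.3% of the 428 without it. p65 was at 63.6% of the sites with p300 and at 57.2% of those without.

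Among bare sites the share with p65 climbed with HA fold of M00002. In 5 equal classes of HA fold, p65 was at 16.7%, 43.3%, 64.6%, 74.2% and 90.7% of 96 or 97 sites each. p300 was at 13.5%, 9.28%, 9.38%, 12.4% and 12.4%. Cbp was at 14.6%, 8.25%, 6.25%, 0% and 9.28%, so that 14 of its 37 sites lay in the lowest class. S5 was at 13.5%, 12.4%, 19.8%, 21.6% and 16.5%, and S2 at 24.0%, 27.8%, 32.3%, 36.1% and 35.1%. HA and p65 of M00002 are libraries of 1 line whose antibodies both see the fusion, and the other marks come from the other line.

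The 12 bare sites with the highest mean rank of HA fold over both lists led with a site between genes, chr2:69355547-69355661 (build mm10, as all positions), 12931 bp from Abcb11, the bile salt export pump. Its HA fold was 21.2 in M00002 and 19.9 in M00001, with the summits at the same base, and its p65 fold was 7.11. It had no peak of Cbp, p300 or either form of Rpb1, and the nearest H3K27ac peak was 18528 bp away. The site at chr11:119933260-119933492, 6424 bp from Baiap2, an organiser of actin at the membrane, and 250 bp from the lncRNA gene Gm11767, had HA folds of 23.2 and 15.3. It carried all 5 marks, with folds of 14.8 for p65, 4.35 for p300, 4.13 for Cbp, 7.01 for S5 and 6.46 for S2, and lay 9120 bp from H3K27ac.

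Inside Itga2b, the platelet integrin subunit alpha-IIb, chr11:102467068-102467369 had HA folds of 20.4 and 14.4 and a p65 fold of 19.04. It too carried all 5 marks and lay 58210 bp from any H3K27ac peak. Inside Kank2, a regulator of the cytoskeleton, chr9:21791963-21792204 had HA folds of 19.5 and 15.5, with p65 at 11.6 and S2 at 4.85. The Pdpk1 site, chr17:24141622-24141778, had HA folds of 22.1 and 11.3, p65 at 19.1, p300 at 3.93, S5 at 8.36 and S2 at 8.73. It lies beneath the window printed above, 21476 bp from H3K27ac, and 59 bp from the lncRNA gene Gm33409.

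The other strong sites mostly had p65 without an acetyltransferase. Near Gpr132, a G-protein-coupled receptor, chr12:112876418-112876706 had HA folds of 18.8 and 11.3 with p65 at 12.1 and S2 at 3.11, and an H3K27ac peak lay 1 bp away. Near the immediate early gene Ier2, chr8:84664042-84664206 had folds of 14.3 and 12.5 with p65 at 13.4 and S2 at 3.01, and an IgG peak lay 380 bp away. Inside Nr1d1, the circadian repressor REV-ERB alpha, chr11:98772775-98773018 had folds of 16.1 and 10.9 and p65 at 16.6, between H3K27ac peaks within 1 kb on both sides. Inside Pth1r, the parathyroid hormone receptor, chr9:110725715-110725961 had folds of 17.4 and 10.2 with p65 at 15.9 and S2 at 4.14.

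Zbtb2, a zinc-finger protein of the BTB family, holds chr10:4386685-4386974, with HA folds of 16.7 and 9.87 and all 5 marks, 230 bp from H3K27ac. Cpt1c, the carnitine palmitoyltransferase of neurons, holds chr7:44970222-44970447, with folds of 13.4 and 10.8, p65 at 14.8, S5 at 4.76 and S2 at 5.06. The last of the 12, chr11:117949736-117950088, lies 15991 bp from Socs3, an inhibitor of JAK-STAT signalling, and had folds of 17.0 and 9.21 and p65 at 12.7 alone. All 12 had p65, 3 of them had both acetyltransferases (Baiap2, Itga2b and Zbtb2) and 1 more, at Pdpk1, had p300 without Cbp.

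**Figure D3:**
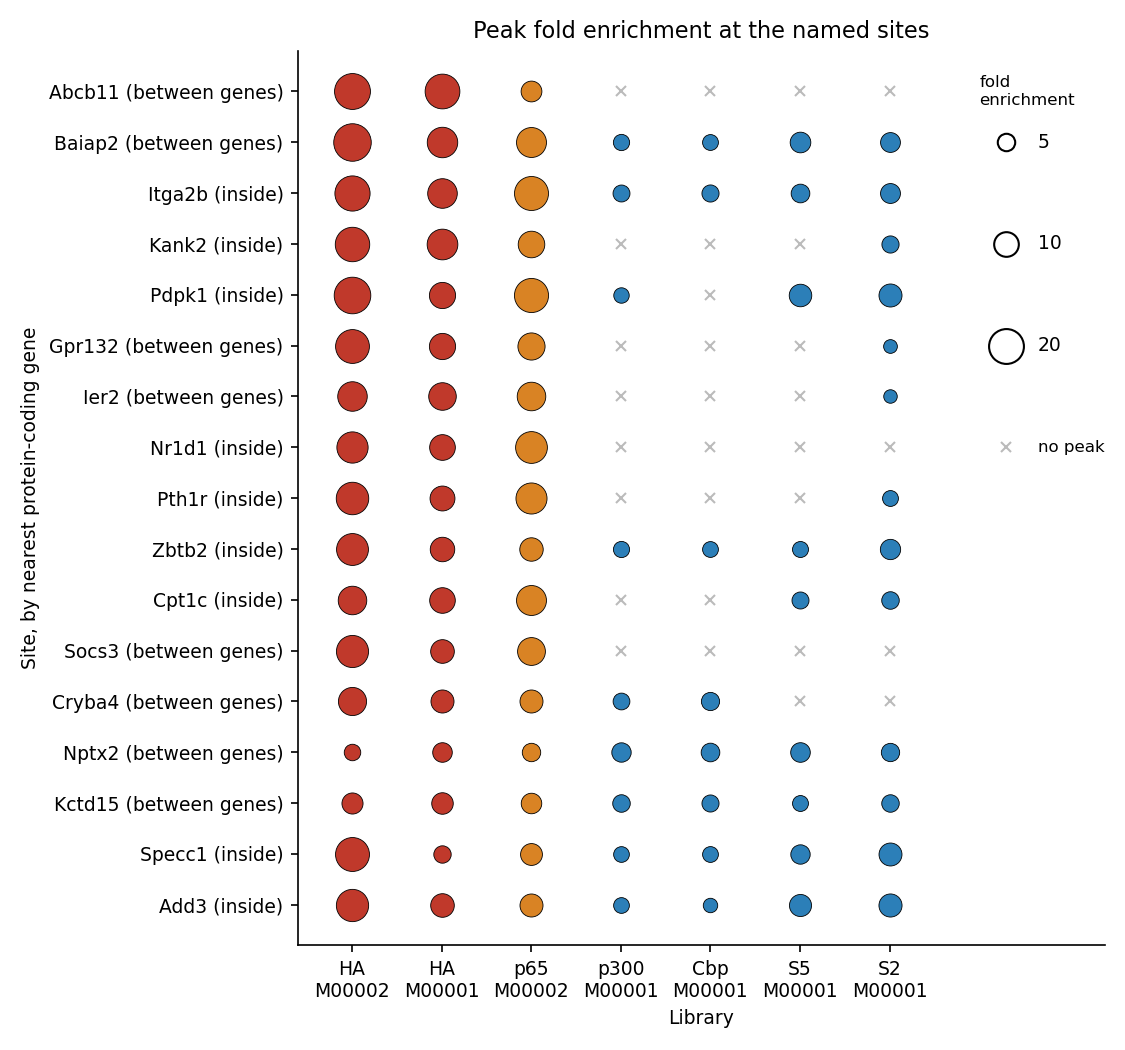
Fold enrichment (circle area, the authors' ratio) of the peak in each of 7 libraries (horizontal axis) at the 12 sites of highest HA rank, then those not already shown of the 8 sites with the highest p65, p300 and Cbp ranks (vertical axis, nearest gene); a cross means no peak. Every site has HA in both lines, by the rule, and p65, and crosses are fewer in the S2 column than in those of p300, Cbp and S5. The sites ranked by p65, p300 and Cbp all had these peaks, so that choice set part of these columns.

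Ranked by p65, p300 and Cbp together, 8 sites included Itga2b, Baiap2 and Zbtb2 and 5 others. One of these is in a gene desert, chr5:112031909-112032410, 214082 bp from the crystallin gene Cryba4 and 101046 bp from H3K27ac. It had HA folds of 13.0 and 8.74, p65 at 8.71, p300 at 4.63 and Cbp at 5.46, and no Rpb1. At chr5:144584357-144584459, 26879 bp from the neuronal pentraxin gene Nptx2, HA was low at 4.49 and 6.30 while p300 reached 6.18, Cbp 5.72 and S5 6.32. Near Kctd15, chr7:34630692-34630937 had HA folds of 7.33 and 7.62 and all 5 marks. It lay 169 bp from H3K27ac and 101 bp from a shared distal HA peak with H3K27ac, and its summits in both lines were 420 bp apart. The last 2, at Specc1 (chr11:62076744-62076966) and Add3 (chr19:53142420-53142726), sit on internal start windows, with HA folds of 18.9 and 4.97 at Specc1 and 17.2 and 9.17 at Add3. S5 was 6.18 and S2 8.68 at Specc1, and 8.03 and 8.78 at Add3. The Cbp peak at Add3 had a −log10 q of only 0.965.

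By count, bare sites on a promoter window carried the marks more often than the rest. Of the 42 sites on a promoter window, 50.0% had S5, 73.8% S2, 81.0% p65 and 35.7% p300. Off every window, 13.6% of 441 had S5, 26.98% S2, 55.8% p65 and 9.07% p300. This split was chosen after the values were seen and carries no test. Windows were overlapped by 6.15% of shared distal peaks with H3K27ac, by 1.27% of the M00002-only class and by 59.7% of shared HA peaks within 1 kb of a gene end.

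At Pdpk1 the HA peak of M00002 ran from 184 to 28 bases before the start, and S5, S2 and p300 peaks spanned the start. At Add3 it ran from 336 to 30 bases before the start, and the HA peaks of both lines and the p65 and S2 peaks began at the same base. At Rbpj (chr5:53590157-53590429) the HA peak had identical ends in both lines, from 189 bases before to 83 after the start, with folds of 15.5 and 9.53. H3K27ac with ac4729 began 5 bp beyond it, and a further bare site, chr5:53589259-53589441, lay 716 bp away and 1 bp from H3K27ac. At Zmym5 (chr14:56811688-56811894), a zinc-finger gene, HA folds were 16.5 and 9.24 across the start, and H3K27ac lay on the upstream side with 250 bp between them.

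**Figure D4:**
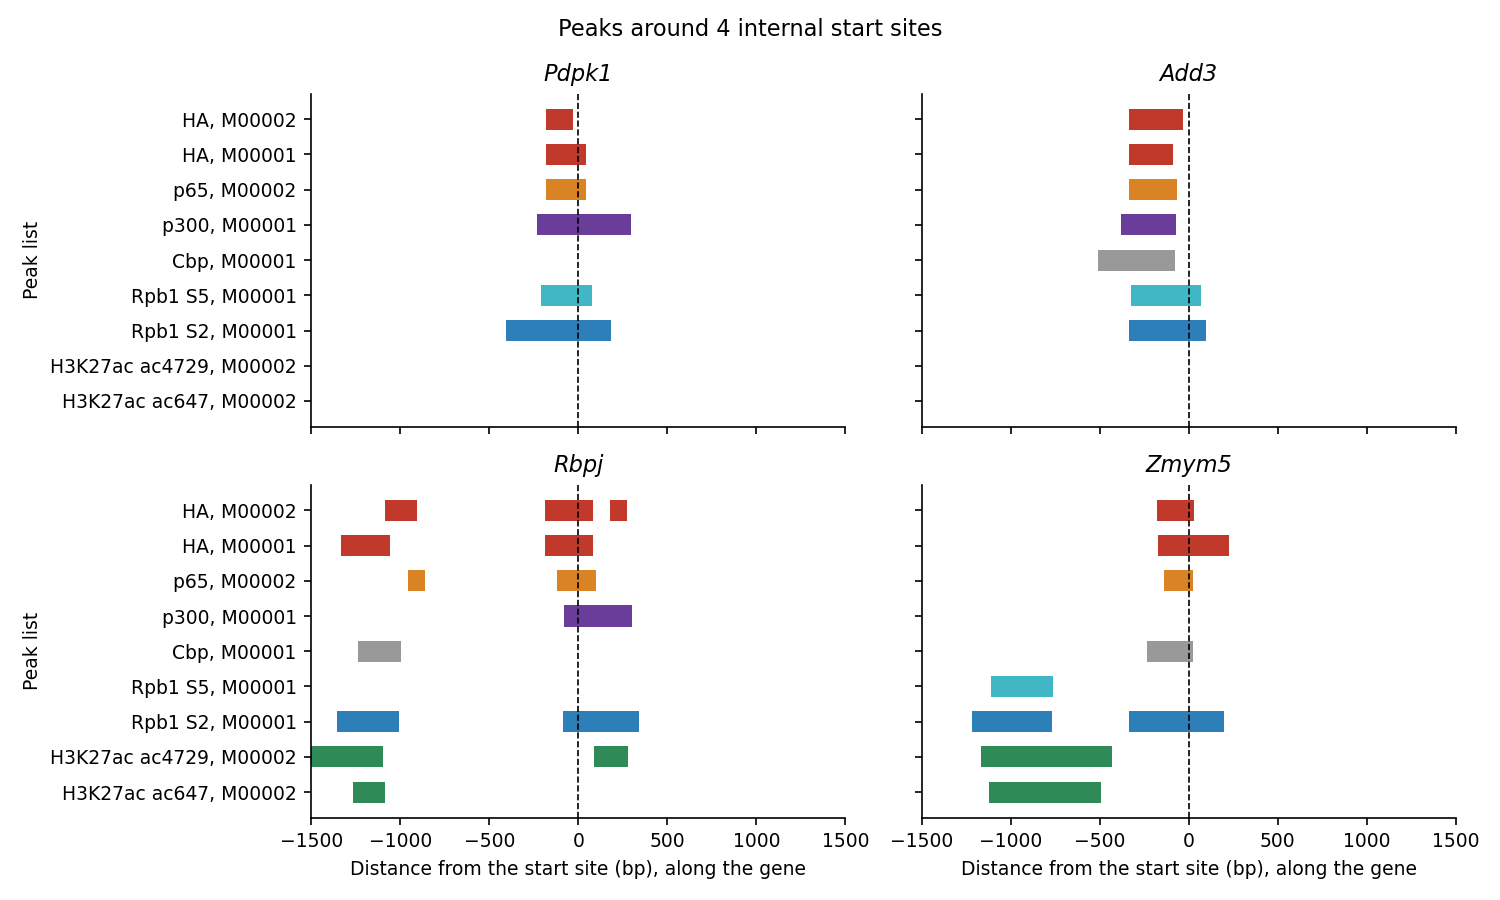
Peaks of 9 lists (rows) around internal start sites of Pdpk1, Add3, Rbpj and Zmym5, as distance in bp along the gene from the start (dashed line); each bar runs from the first to the last base of a peak, cut at 1500 bp. HA of both lines spans the start at Rbpj and Zmym5, ends before it at Add3, and at Pdpk1 ends 28 bp before it in M00002 and spans it in M00001. H3K27ac is missing within the range at Pdpk1 and Add3 and lies beside the HA peak at Rbpj and Zmym5.

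Bare sites were spread between genes and gene bodies. In all, 267 (55.3%) lay inside a protein-coding gene, against 59.7% of sites with H3K27ac (odds ratio 0.834, 0.685 to 1.02, adjusted p = 0.0755, Fisher's exact test, not passed) and 46.6% of M00002-only peaks (odds ratio 1.41, 1.18 to 1.70, adjusted p = 0.000273, Fisher's exact test). Over all HA peaks free of IgG it was 50.9%, and over the shared ones 54.1%. The first of these passed the test under 5 of 10 alternatives, and the second lost its call with sites more than 5 kb from gene ends and, with a stricter q for HA, its direction. The median distance to a gene end was 13722 bp, 345 sites (71.4%) were more than 5 kb from one and 109 (22.6%) more than 50 kb.

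Rpb1 with S2 and with S5 was more frequent at bare sites inside genes than at those between genes. S2 was at 37.5% of 267 sites inside genes and 23.1% of 216 between genes, an odds ratio of 1.99 (1.33 to 2.97, adjusted p = 0.00384, Fisher's exact test, over 5 tests). S5 was at 20.6% and 12.0%, an odds ratio of 1.90 (1.14 to 3.14, adjusted p = 0.0353, Fisher's exact test). p300 at 14.2% and 7.87% (adjusted p = 0.0516), p65 at 60.3% and 55.1% (0.333) and Cbp at 7.12% and 8.33% (0.731) did not pass the same exact test. Without the sites on promoter windows the odds ratios were 1.52 for S2 and 1.23 for S5, and neither passed. The S5 call was also lost more than 5 kb from gene ends (1.06) and without H3K27ac within 1 kb (1.66).

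Distance to H3K27ac ranged from 1 bp to 2181261 bp, with a median of 7856 bp. An H3K27ac peak lay within 1 kb of 135 sites (28.0%), on both sides of 20 of them, and within 100 bp of 65 (13.5%). In the M00002-only class the shares were 9.76% within 1 kb and 3.89% within 100 bp. Sites up to 500 bp from H3K27ac had p65 at 68.6% and S2 at 45.8%. Those 10 to 50 kb away had p65 at 54.9% and S2 at 21.5%, and those over 50 kb away had 48.1% and 24.7%. In these bands, in that order, the median HA fold of M00002 was 7.36, 7.25 and 5.98. The median peak width was 174.5, 150.5 and 126 bp. The part of fold and width in these shares was not tested. Cbp was at 11.9% of sites up to 500 bp away, 4.17% of those 10 to 50 kb away and 13.0% of those over 50 kb away. A polymerase or acetyltransferase peak could thus be found at bare sites at any of these distances.

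**Figure D5:**
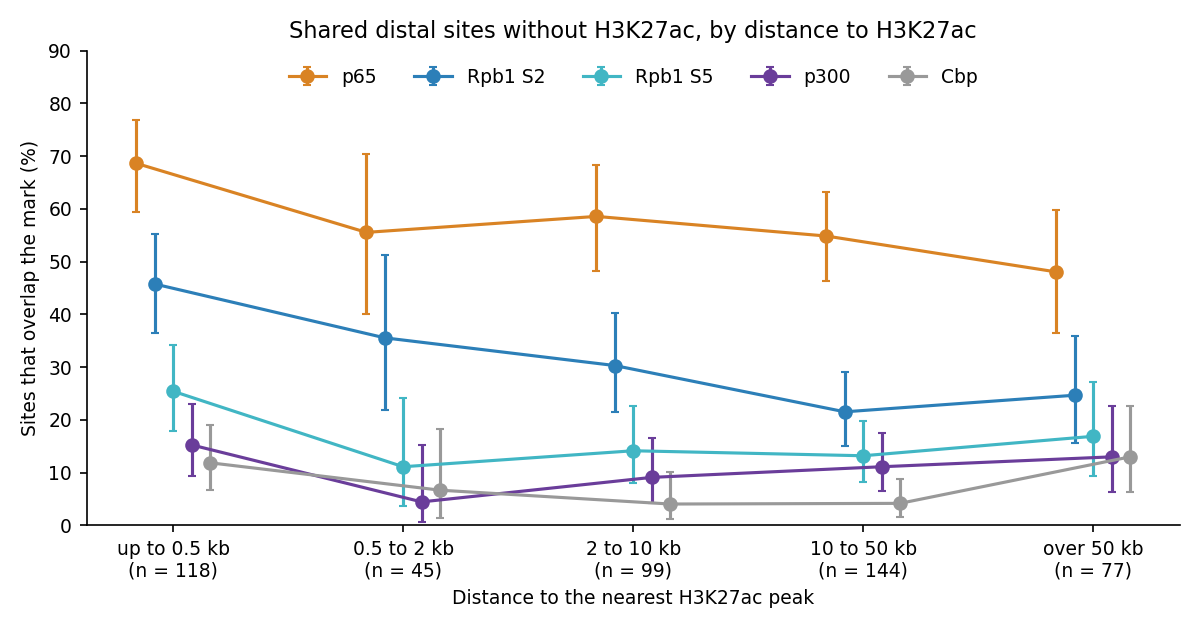
Share of bare sites that overlap each of 5 marks (percent, vertical axis) in 5 bands of distance to the nearest H3K27ac peak of M00002 (horizontal axis, with the number of sites); bars are exact 95% intervals over sites. The S2 share is 45.8% in the nearest band and 21.5% from 10 to 50 kb, and the intervals of neighbouring bands overlap.

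The site farthest from H3K27ac was chr14:109149343-109149428, 235104 bp from Slitrk1, a neuronal membrane protein. Its HA folds were 4.49 in M00002 and 8.95 in M00001, and it had no p65, but Cbp reached 12.4, the highest Cbp fold of the 37 bare sites with Cbp, S5 13.5 and S2 11.3. The next 4 sites by this distance, near Spertl, Brinp3, Ptprd and Sntg1, lay 677210 to 1796295 bp from H3K27ac, and had HA folds of 3.74 to 8.23 in M00002, p65 at Spertl and Sntg1 and no other mark. The 5 sites farthest from a gene end included 3 on the X chromosome, one near Vmn2r121 and 2 near 4932411N23Rik, beside those near Ptprd and Slc39a10. Both 4932411N23Rik sites had an IgG peak nearby, at 342 and 686 bp, and HA folds of 3.74 and 6.50 in M00002.

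By gene, the bare sites lay inside or nearest to genes in many lists, and to several genes of some. Of 19 AP-1 and Ets genes 3 had one (15.8%), and of 25 radial glia and progenitor genes 3 (12.0%). Of 18 chromatin regulators 2 had one (11.1%), and of 19 ependymoma genes 2 (10.5%), Hes1 and Jag1. Some genes are in more than one list, and no test was made. Over all protein-coding genes 470 of 21631 (2.17%) had a bare site inside or as their nearest. Of 18 Notch pathway genes 4 had one, with 5 sites in all: the effector Rbpj, the ligand Jag1 and the repressors Hes1 and Hes5, which Notch induces. Shared distal HA peaks with H3K27ac lay inside or nearest to 5 of the 18 (27.8%), against 7.91% of all protein-coding genes. Notch genes were thus not particular to bare sites. The Jag1 site, chr2:137109994-137110119, lay in the gene and 41486 bp from H3K27ac, with HA folds of 13.6 and 5.47 and no p65. It had p300 at 4.19, S5 at 3.55 and S2 at 3.42, with S5 at a −log10 q of only 1.29. The Hes5 site, chr4:154948656-154948833, 11793 bp from the gene, had HA folds of 13.1 and 4.33 and p65 at 10.8. The Hes1 site, chr16:30032352-30032501, 32856 bp away, had 8.18 and 2.98 and p65 at 5.08. Its HA peak in M00001 had a −log10 q of only 0.110, the lowest of that list, so its place among shared sites is weak.

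Of 29 genes of the NF-kappaB pathway and its targets none had a bare site, while 7 (24.1%) had a shared distal HA peak with H3K27ac inside or as their nearest. Over all protein-coding genes 1711 (7.91%) had such a peak with H3K27ac. None of 22 Wnt and TGF-beta genes had a bare site, against 11 with H3K27ac sites, and none of 20 axon guidance genes, 15 ependymal and cilium genes, 13 oligodendrocyte lineage genes or 12 microglia and leukocyte genes. With bare sites at 2.17% of all genes, none in a list of this size is near the background. Of 24 receptor tyrosine kinases only Alk had any, with 2 sites in its first-to-last span: chr17:72505246-72505460 (HA folds 16.6 and 4.93, p65 at 7.63, 31 bp from H3K27ac) and chr17:72603300-72603509 (9.21 and 4.12, p65 at 9.60). Of 12 Hedgehog genes only Hhip, which sequesters Hedgehog ligands, had one, with folds of 5.98 and 2.98 and none of the 5 marks. The HA peak of M00001 at Hhip also had a −log10 q of only 0.110.

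Among transcription factors and chromatin regulators, Jund of AP-1 held a site 1035 bp from its end with folds of 6.04 and 8.72, p65 at 5.50 and S5 at 6.92. Ets1 and Fli1 of the Ets family and Tead4, the DNA-binding partner of YAP, had sites without any of the 5 marks, with HA folds of 8.80 and 6.56, 6.60 and 3.98, and 4.95 and 4.71. Hdac7, a histone deacetylase, had p65 at 8.77, and Arid1a, a SWI/SNF subunit, had none of the marks. Ccnd3, cyclin D3, held a site on an internal start window with HA folds of 6.38 and 3.71, p65 at 5.55 and S2 at 3.05. Cell type genes with a site included Id3, Hes1 and Hes5 among radial glia, Id3 with p300 and with p65 at a −log10 q of only 0.654. The others were Tubb3 in neurons, with p65, Aldh1l1 in astrocytes, with no mark, and Flt1 in endothelium, with S2.

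Most genes held a bare site singly: 238 had 1 inside, 15 had 2 and 1, Triobp, had 3. Triobp encodes an actin-bundling protein, and its sites had HA folds of 4.33 to 7.49 in M00002 and lay 86 to 254 bp from H3K27ac. After Triobp the genes with most sites, in the order of a fixed rule, were Alk, Ccdc57, Clec11a and Gpatch1, with 2 each. Those of Clec11a, a secreted growth factor, lie 94 bp apart beneath 1 HA peak of M00001 and share its marks, with p300 at 5.55, S5 at 7.42 and S2 at 7.83. The 483 sites overlapped 478 distinct HA peaks of M00001.

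The marker lists describe the lines only loosely, since they rest on peaks. No share over all protein-coding genes is given for these peaks, so the counts cannot show a cell identity. H3K27ac with both antibodies lay within 5 kb of 11 of 25 radial glia and progenitor genes in M00002, and S5 near 6 in M00001. For neuron genes the counts were 0 and 1 of 16, for oligodendrocyte lineage 3 and 2 of 13, for astrocytes 3 and 1 of 10, for microglia and leukocytes 3 and 2 of 12, and for endothelium 4 and 0 of 10. The part of other cells in the bare sites was not tested.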

How the data were processed

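Each deposited list holds the MACS2 peaks of 1 sample in the narrowPeak layout, per the labels, which name the caller. The columns used are the authors' deposited score, the summit's fold enrichment (a ratio to local background), −log10 of p, −log10 of q and the summit offset. Bowtie2 2.3.5.1 and the build mm10 come from the submitters' processing notes. Settings and the calling control are not stated in the labels. Fold enrichment served to rank and describe peaks inside their own list, and read depth is unknown. The names of the M00002 lists of HA and p65 add 120 bp, and 4 titles of M00001 (Cbp, p300, S2, S5) add a code, both unexplained in the labels. HA gave 29937 usable peaks in M00002 and 8504 in M00001.

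Overlap meant at least 1 bp on chromosomes 1 to 19 and X. The annotation was GRCm38.p6 with 21631 protein-coding genes, and "inside" meant between the first and last base of a gene. Classes were compared by Fisher's exact test, two-sided, with Benjamini-Hochberg adjustment over 12 tests between classes and 5 between positions and a threshold of 0.05. Shares carry exact Clopper-Pearson 95% intervals and odds ratios Woolf intervals, for counting error alone. Neighbouring peaks are not independent. Mantel-Haenszel odds ratios over 5 classes of HA fold or HA width were alternatives, beside stricter overlap, q and distance limits and summit windows.

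The sites, gene lists and tests were chosen with earlier results of these data known. Named sites were the 12 of highest mean HA rank, the 8 of highest p65, p300 and Cbp ranks, up to 2 per gene list (18 lists, 296 of 297 genes found), the 5 genes with most sites and the 5 sites farthest from H3K27ac and from gene ends. Fli1, a second Rbpj site, Zmym5 and the other genes of the printed windows were added after their values were seen. Overlap code was tested on simulated peaks. Python 3.11.15, pandas 2.3.3 and scipy 1.17.1 were used. Sequences come from RefSeq promoter windows, and 32585 distinct windows were searched.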

Additional observations from a re-analysis of the deposited data

How the results depend on the processing

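No paired analysis was possible because each target had 1 library per line. Of 190 test results and site counts under the 12 alternatives, 166 kept direction and side of the threshold. The rest follow as odds ratios, and unless a cause is named the cause was not tested. A −log10 q of at least 5 for HA in both lines left 131 sites. With it the comparison with H3K27ac sites gave 0.723 for S2 and 0.819 for S5, no longer called, and 0.608 for position inside genes, now called. Position against M00002-only peaks turned to 0.995 and Cbp inside against between genes to 1.02, while S2 (2.37) and S5 (1.56) inside against between genes were no longer called, with fewer sites tested. Cbp against H3K27ac sites was not called with a −log10 q limit of 2 on marks (0.668), within HA fold classes (0.736), within HA width classes (0.806) or with 250 bp summit windows (0.720), and S5 was not within width classes (0.853). Position against H3K27ac sites was called with both antibodies required (0.779), more than 5 kb from gene ends (0.719), with no H3K27ac within 1 kb (0.775) and off promoter windows (0.773), and position against M00002-only peaks was lost at 5 kb (1.22). Inside against between genes, S5 was lost at 5 kb (1.06), without H3K27ac within 1 kb (1.66) and off promoter windows (1.23), S2 off promoter windows (1.52), p300 was gained within width classes (2.06) and p65 without H3K27ac within 1 kb (1.79). The promoter window alternative and one that left out peaks with IgG within 5 kb, which kept 446 sites, were chosen after seeing the data. Against H3K27ac sites p65 stayed called at 0.149 to 0.426 and p300 at 0.336 to 0.581 in all 12 alternatives. Against M00002-only peaks all 5 marks stayed called in all 10, at lowest 3.11 for p65, 9.76 for p300, 10.4 for Cbp, 8.44 for S5 and 6.30 for S2.

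Peak lists without depth limit what absence means: a bare site had no H3K27ac peak in 1 library per antibody of M00002, and a site without p300 or Cbp had no peak in lists of 6054 and 5847 peaks. p65 and HA come from 1 line and the other marks from the other, so a difference of mark and one of line cannot be told apart. Summit sequences, exons and introns were not analysed here.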

Other observations

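The share of shared distal HA peaks that lacked H3K27ac differed by chromosome. On the X chromosome it was 19 of 48 (39.6%, exact 95% interval 25.8 to 54.7%), against 17.1% over all chromosomes, and the lowest share was that of chromosome 16, with 8 of 90 (8.89%, 3.92 to 16.8%). Of the 19 X-linked sites 5 had an IgG peak of either line within 5 kb, against 1 of the 29 X-linked peaks with H3K27ac, and the part of these sites in the X share was not tested. The chromosome was picked after its value was seen, and no test was made.

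HA peaks of both lines often shared an edge to the base. The first or last base was the same at 51 bare sites (10.6%, 7.96 to 13.6%), at 9.62% of shared distal peaks with H3K27ac and at 12.4% of shared peaks within 1 kb of a gene end. Both ends were the same at 2 bare sites.

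Noncoding genes lay close to some bare sites: the end of one was within 1 kb of 48 sites (9.94%), of which 38 were lncRNA genes. Another bare site lay within 10 kb of 33 sites, and a shared distal HA peak with H3K27ac within 10 kb of 49 (10.1%). These counts were not made for other HA peaks, so they cannot show whether bare sites differ from those.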
